A study of Homo sapiens with 6 samples.

Results

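Enzymes that add and remove acetyl and methyl groups on histones, and on many other proteins, were followed in Huh7 cells under proteasome inhibition. The members were all genes of the deposited table whose symbol starts with HDAC, SIRT, KAT, KMT, SETD, KDM or PRMT followed by a digit. Symbols with a hyphen (7 rows) were left out. This gave 66 of the 19021 genes in the table: 11 zinc-dependent deacetylases (HDAC), 7 NAD-dependent deacetylases or sirtuins (SIRT), 8 lysine acetyltransferases (KAT), 17 lysine methyltransferases and SET-domain relatives (KMT and SETD), 17 lysine demethylases (KDM) and 6 arginine methyltransferases (PRMT).

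The study compared Huh7 cells given carfilzomib for 24 h with Huh7 cells given the solvent DMSO, each in 3 libraries of sequenced mRNA. Huh7 is an established line from a human hepatocellular carcinoma, labelled wild type (WT) in both groups and grown in 6-well plates. Carfilzomib blocks the chymotrypsin-like site of the proteasome, the protease that degrades ubiquitin-tagged proteins. The labels used here give no dose, and none says that the libraries of a group are separate cultures, so each p-value measures the spread between libraries, which may be technical.

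Acetylation of histone tails generally accompanies active chromatin, and deacetylases reverse it. Lysine methylation has effects that depend on the site: on histone H3, methylated lysine 4 (H3K4) and lysine 36 (H3K36) mark promoters and transcribed gene bodies, while methylated lysine 9 (H3K9) and lysine 27 (H3K27) mark silenced regions. HDAC6 stands apart from the other deacetylases because it works in the cytosol. It removes acetyl groups from alpha-tubulin and HSP90, binds ubiquitin, and links ubiquitin-tagged aggregates to the dynein motor, which carries them to the aggresome, a storage site for misfolded protein near the centrosome.

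Library totals were recovered from the deposited FPKM values, which are fragments scaled by gene length and by library size. They were 38386581 to 39205256 reads in the carfilzomib libraries and 39292337 to 39651170 reads in the DMSO libraries. Principal component analysis placed 96.0% of the variance between the groups, on the first component. On the second component, with 1.22%, DMSO replicate 1 scored 8.43, against -3.69 and -4.72 for the other DMSO libraries. The response to proteasome inhibition was present in the libraries as labelled: all 8 of 8 check genes, heat shock genes, HMOX1 and proteasome subunits, rose, and HSPA1A, an inducible HSP70 chaperone, averaged 1122 FPKM with carfilzomib and 6.26 FPKM with DMSO. Of 8 hepatocyte-like markers, 8 fell, and their summed level was 4102 to 4239 FPKM with carfilzomib and 9670 to 9845 FPKM with DMSO. None of the 8 was at 0 in any library. By the test described below, 36.7% of all genes tested rose and 44.9% fell. The check genes and markers were chosen with earlier results of these data known, so their counts are a description. The check gene HSPA6, at 0.0179 FPKM with DMSO, passed the filter only through its carfilzomib libraries. Of 10 fibroblast, endothelial and immune markers, 9 were in the table and 3 passed the filter. Their summed level was 206 to 235 FPKM with carfilzomib and 350 to 362 FPKM with DMSO, nearly all of it from LYZ and CD68. The endothelial marker PECAM1 also passed the filter, at 2.58 FPKM with carfilzomib and 3.94 FPKM with DMSO. VWF, CDH5 and PTPRC were listed at 0 in at least 1 library.

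Across the enzymes, carfilzomib changed most members, but by small amounts and in both directions. The test was limma on log2(FPKM + 1), run on genes averaging 1 FPKM or more, and a gene was called at a Benjamini-Hochberg adjusted p under 0.05. Of the 63 members tested, 22 rose and 28 fell, or 34.9% and 44.4%. The same test called 36.7% of all 11153 genes tested higher and 44.9% lower, 81.6% in all, so the shares of the enzymes were close to those of the table as a whole. The median difference, carfilzomib minus DMSO, was -0.07 on the log2(FPKM + 1) scale for the 63 enzymes and -0.07 for all genes tested. A difference of at least 1 on this scale (2-fold in FPKM + 1) was found in 2 called members, the sirtuin SIRT7 upward and the acetyltransferase KAT2B downward, where 5.28% of all genes tested rose and 7.84% fell that far. By the plain ratio of mean FPKM, 4 tested members changed 2-fold or more: SIRT7, SIRT6 and HDAC7 upward and KAT2B downward. The share of all genes past 2-fold by the plain ratio was not counted, so this number has no background beside it. The libraries of the groups did not overlap in 23 higher and 28 lower members, against 37.4% and 45.4% of all genes tested, 82.8% in all. A larger pseudocount shrinks the differences of low genes: with 5 in place of 1, SIRT3 differed by -0.25, PRMT9 by -0.29, HDAC10 by -0.24 and SETD3 by -0.51, against -0.54, -0.65, -0.42 and -0.82, all still called. Without DMSO replicate 1, the library apart on the second component, 21 members were called higher and 26 lower. At that setting 4032 of all 11138 genes tested were called higher and 4924 lower. In bulk RNA, fewer cells of a type and less RNA per cell cannot be told apart.

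**Figure D1:**
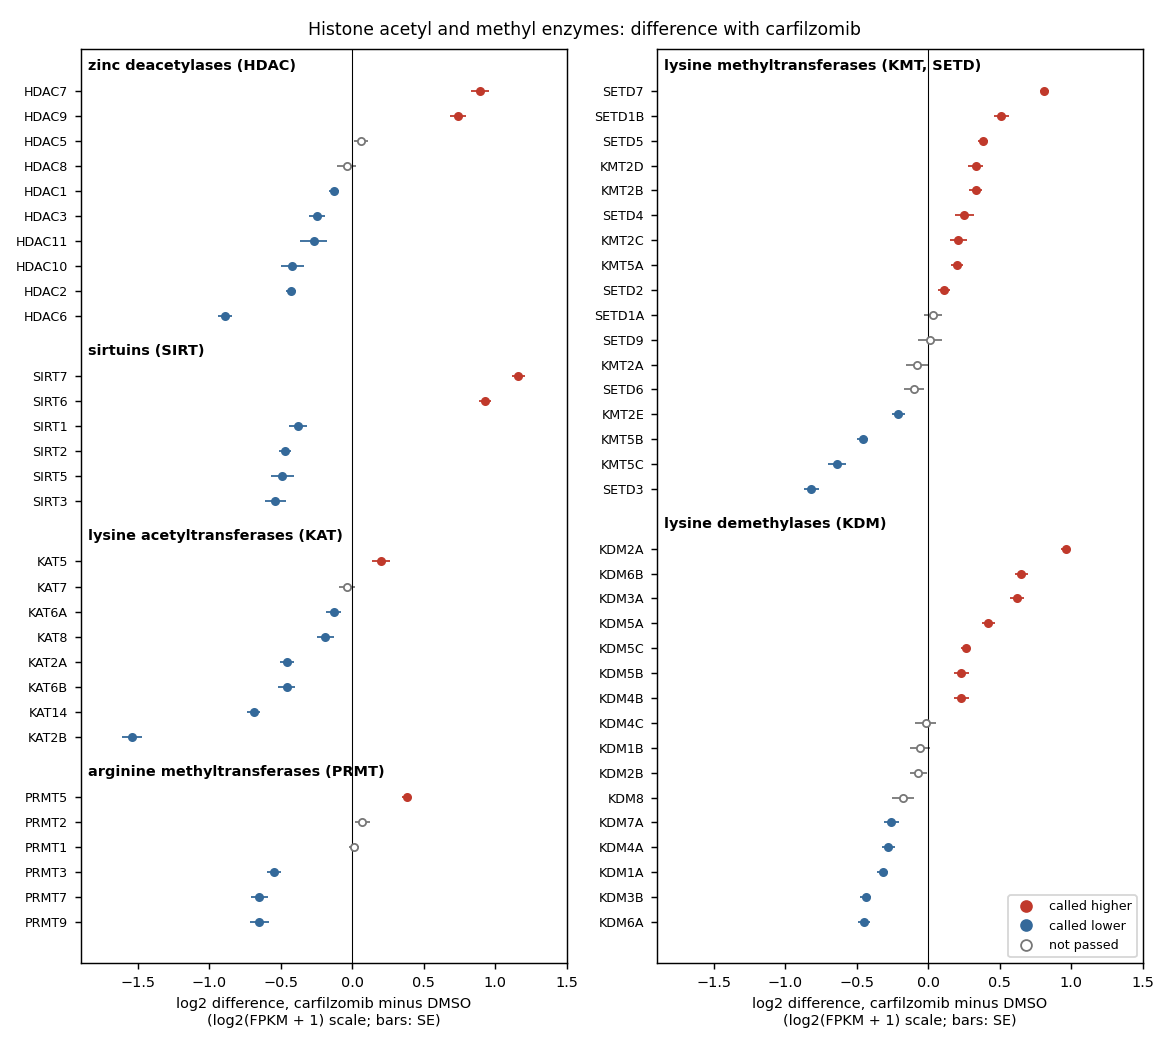
Log2 difference of each of the 63 tested enzymes, carfilzomib minus DMSO, on the log2(FPKM + 1) scale, with bars for the standard error, grouped by family and ordered by size. SIRT7 at 1.16 and KAT2B at -1.54 are the extremes, and every family holds both higher and lower members.

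Most of the enzymes were of middling abundance. The 63 tested members had a median level of 7.43 FPKM, and 5 of them averaged over 30 FPKM: PRMT1, KDM2A, HDAC1, PRMT5 and KDM5C. KDM2A ranked 1 of 63 by mean level with carfilzomib and 2 with DMSO, while PRMT1 ranked 2 with carfilzomib and 1 with DMSO. SETD7 ranked 6 with carfilzomib and 13 with DMSO, and KAT2B ranked 62 with carfilzomib and 44 with DMSO.

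HDAC6 was clearly lower with carfilzomib. It had 10.3, 9.15 and 10.2 FPKM in the 3 carfilzomib libraries, against 19.2, 19.5 and 18.9 FPKM in the 3 DMSO libraries. All carfilzomib libraries lay below all DMSO libraries, and the values rest on 2040 to 2342 reads and on 4354 to 4481 reads. The means were 9.89 ± 0.641 FPKM with carfilzomib and 19.2 ± 0.288 FPKM with DMSO (SD, n = 3 each), a ratio of 0.515. The difference was -0.89 on the log2(FPKM + 1) scale (SE 0.0481, limma adjusted p = 6.40e-08), which placed HDAC6 at percentile 10.3 of all genes tested by signed difference and made it the largest fall among the zinc-dependent deacetylases tested. HDAC4, below the filter and not tested, had a similar ratio of 0.508.

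The bases just before the HDAC6 start are shown because this gene carries the comparison with the aggresome factors. RefSeq lists 3 starts for HDAC6 on GRCh38.p14, and the 250 bases before the first lie at chrX:48801817-48802066 on the plus strand. Capitals mark the letters CCAAT, the box bound by NF-Y, read on either strand.
HDAC6 promoter: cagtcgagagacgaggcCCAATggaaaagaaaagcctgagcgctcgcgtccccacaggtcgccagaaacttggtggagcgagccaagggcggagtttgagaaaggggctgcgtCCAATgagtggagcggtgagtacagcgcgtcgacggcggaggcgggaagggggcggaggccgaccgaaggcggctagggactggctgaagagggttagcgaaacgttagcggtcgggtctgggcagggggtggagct
The CCAAT letters begin 233 and 137 bases before the start. This window holds none of the other letters searched, which were GAANNTTC of heat shock elements, TGACNNNGC of elements for CNC factors such as NRF1 and NRF2, TTTGAA of the cell cycle CHR element, TGANTCA of AP-1 sites, and TTGGCGC or TTCGCGC of E2F cores. The windows differ between starts: of the others listed for HDAC6, the second holds TGACNNNGC and no CCAAT, and the last holds CCAAT alone.

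Most genes of a list of aggresome and alpha-tubulin factors moved the other way from HDAC6. In a list of 27 genes for aggresome formation, ubiquitin handling and alpha-tubulin, 24 were tested, 18 rose and 3 fell, with a median difference of 0.85. These shares, 75.0% and 12.5%, stand beside 36.7% and 44.9% of all genes tested. The list was chosen with earlier results of these data known, so its shares are a description and not a test. Of the dynein subunits listed, DYNC1H1 rose by 0.26 and DYNLL1 by 0.20, and DYNC1I2 (-0.01) did not pass the test. The rises in the list included BAG3, a cochaperone that delivers HSP70 clients to the aggresome, at 157 FPKM with carfilzomib and 10.5 FPKM with DMSO, and HSP90AA1, the inducible HSP90, at 1120 FPKM with carfilzomib and 275 FPKM with DMSO. The 3 genes of the list that fell were the chaperone-linked ubiquitin ligase STUB1 (-0.24), the dynactin subunit DCTN1 (-0.20), which helps dynein hold its cargo, and the alpha-tubulin TUBA1B (-0.08). ATAT1, the enzyme that adds the acetyl group HDAC6 removes from alpha-tubulin, averaged 0.0743 FPKM with carfilzomib and 0.025 FPKM with DMSO and was too low to test; it was singled out for that role after its values were seen. The other tubulin deacetylase, SIRT2, fell as HDAC6 did, with values given among the sirtuins.

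**Figure D2:**
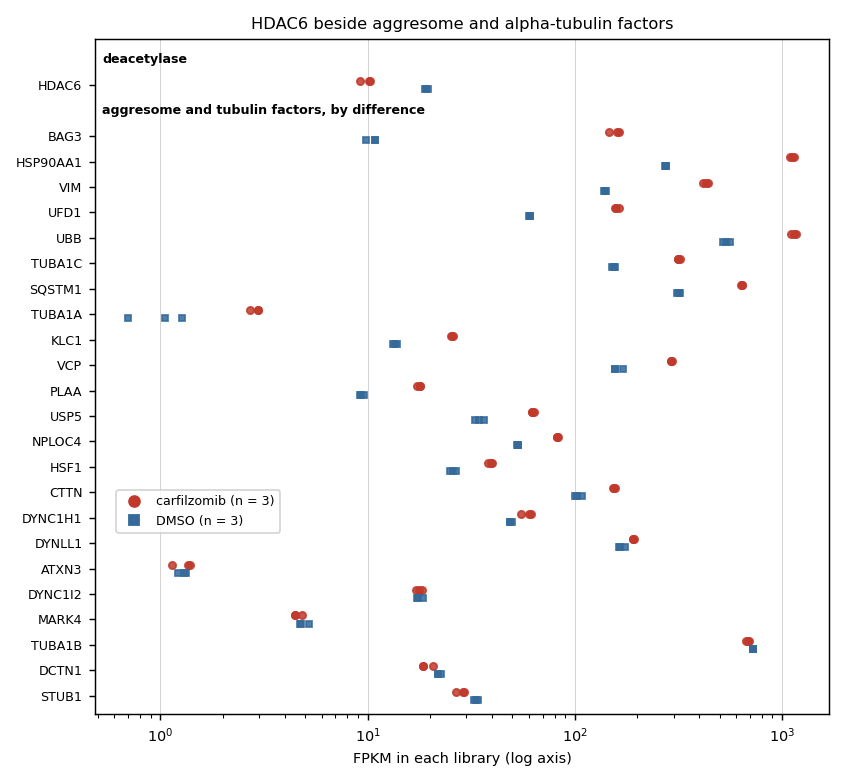
FPKM of HDAC6 and of tested aggresome and alpha-tubulin factors in each carfilzomib library (circles) and DMSO library (squares), on a log axis, ordered by difference from BAG3 (3.77) to STUB1 (-0.24). HDAC6 lies at 9.15 to 10.3 FPKM with carfilzomib and at 18.9 to 19.5 FPKM with DMSO, while most of the factors below it have the carfilzomib libraries on the right.

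The other class IIb deacetylase, HDAC10, known as a polyamine deacetylase, also fell, by less. It averaged 3.68 ± 0.273 FPKM with carfilzomib and 5.26 ± 0.636 FPKM with DMSO (SD, n = 3 each), a difference of -0.42 (SE 0.0800, limma adjusted p = 7.74e-04). The FPKM ratio of HDAC6 to HDAC10 was 2.79, 2.69 and 2.59 in the carfilzomib libraries and 3.34, 3.56 and 4.17 in the DMSO libraries, without overlap. On the log2(FPKM + 1) scale that ratio changed by -0.48 with carfilzomib, and the exact two-sided permutation test gave p = 0.1, the smallest that 3 libraries against 3 can give.

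Of the 4 nuclear class I deacetylases, 3 fell and 1, HDAC8, did not pass the test, where 44.9% of all genes tested fell. HDAC1 and HDAC2 are the catalytic subunits of the Sin3, NuRD and CoREST corepressors. HDAC1, the most abundant deacetylase, had 65.5, 64.8 and 63.3 FPKM with carfilzomib and 74.0, 69.0 and 69.6 FPKM with DMSO. These groups did not overlap, though they lay close, and the difference was -0.13 (SE 0.0344, limma adjusted p = 0.00487). With median-of-ratios scaling it was -0.04 with a limma adjusted p of 0.308, so the call for HDAC1 depends on the scaling. HDAC2, its close relative, averaged 17.0 ± 0.560 FPKM with carfilzomib and 23.3 ± 0.399 FPKM with DMSO (SD, n = 3 each), a difference of -0.43. HDAC3, the NCoR subunit, averaged 20.3 ± 0.564 FPKM and 24.5 ± 2.00 FPKM in the same order, a difference of -0.25. HDAC8 differed by -0.04 (95% interval -0.19 to 0.11), and 10.5% of its exon bases are shared with another gene on the same strand. The summed level of the class was 105 to 107 FPKM with carfilzomib and 122 to 124 FPKM with DMSO.

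The class IIa deacetylases, which shuttle between nucleus and cytoplasm and repress MEF2 targets with little catalytic activity of their own, moved upward where they passed the test. Of all genes tested, 36.7% rose. HDAC7 had 10.9, 10.9 and 12.1 FPKM with carfilzomib, against 5.11, 5.82 and 6.01 FPKM with DMSO. The lowest carfilzomib library was well above the highest DMSO library, the ratio of means was 2.00, and the difference was 0.89 (SE 0.0632, limma adjusted p = 5.01e-07). HDAC9 averaged 5.53 ± 0.205 FPKM with carfilzomib and 2.90 ± 0.169 FPKM with DMSO (SD, n = 3 each), a ratio of 1.90. HDAC5 differed by 0.06 (95% interval -0.04 to 0.17, limma adjusted p = 0.242) and was called higher, at 0.14 and 0.19, with median-of-ratios scaling and quantile normalization. HDAC4 was below the filter, with 529 to 589 reads in the carfilzomib libraries and 1017 to 1273 reads in the DMSO libraries. These are 0.573 ± 0.0260 FPKM and 1.13 ± 0.127 FPKM (SD, n = 3 each), opposite in direction to HDAC7 and HDAC9, and no test was run on it.

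HDAC11, the sole class IV enzyme and mainly a remover of fatty acyl groups, averaged 2.57 ± 0.416 FPKM with carfilzomib and 3.31 ± 0.385 FPKM with DMSO (SD, n = 3 each). The difference was -0.27 (limma adjusted p = 0.0207), but the groups overlapped, and the call was lost in 6 of the alternatives tried, 3 of which left out a single library: carfilzomib replicate 1 (-0.22), carfilzomib replicate 2 (-0.23) or DMSO replicate 1 (-0.20).

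**Figure D3:**
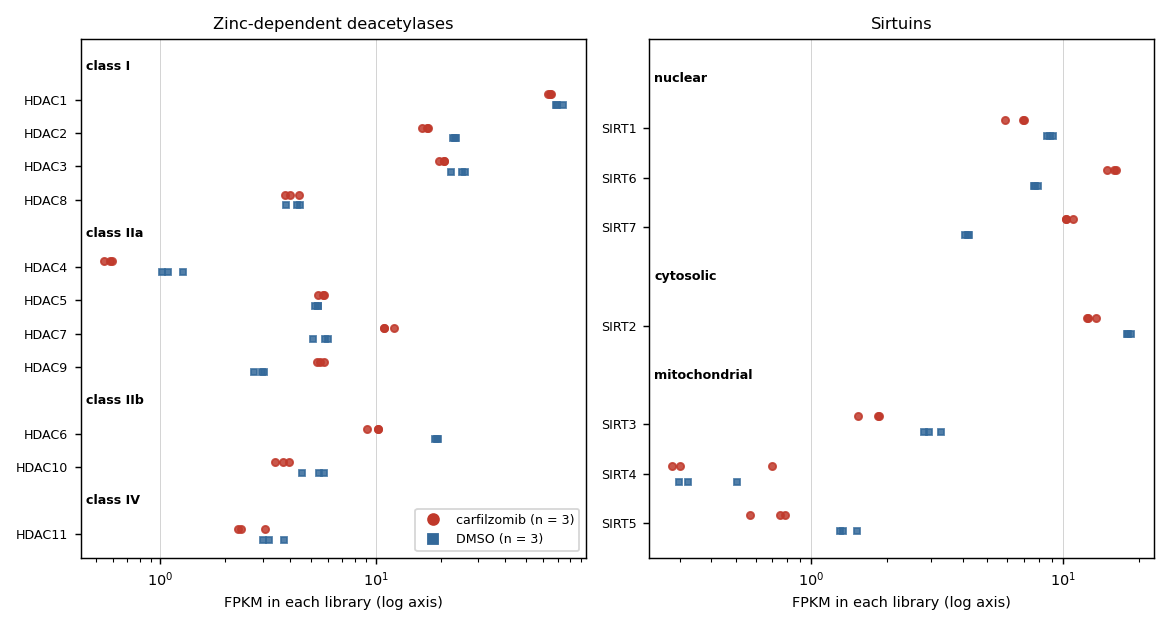
FPKM of the 11 zinc-dependent deacetylases and 7 sirtuins in each carfilzomib library (circles) and DMSO library (squares), on log axes, by class and by main compartment. HDAC7, HDAC9, SIRT6 and SIRT7 have the carfilzomib libraries to the right of the DMSO libraries, and HDAC6, SIRT2 and SIRT3 have them to the left.

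The sirtuins divided within the nucleus. SIRT7, a nucleolar enzyme that deacetylates histone H3 at lysine 18 and acts with RNA polymerase I, had 10.3, 10.3 and 11 FPKM with carfilzomib, against 4.06, 4.23 and 4.21 FPKM with DMSO. The groups were far apart, the ratio of means was 2.52, and the difference of 1.16 (SE 0.0467, limma adjusted p = 8.31e-09) was the largest rise among the enzymes. With a pseudocount of 5 in place of 1 the difference was 0.76, below the 0.93 of the demethylase KDM2A at that setting. SIRT6, a chromatin-bound deacetylase of H3K9 known for roles in DNA repair and glycolysis, had 14.9, 16.2 and 15.9 FPKM with carfilzomib and 7.92, 7.73 and 7.64 FPKM with DMSO. The groups did not overlap, the ratio of means was 2.02 and the difference was 0.93 (SE 0.0432, limma adjusted p = 2.21e-08).

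The bases before the start of SIRT6 are shown as the counterpart to HDAC6, since it is the nuclear deacetylase with the largest rise for which the RefSeq promoter table held an entry. RefSeq lists 2 starts, and the 250 bases before the first lie at chr19:4182564-4182813 on the minus strand of GRCh38.p14. Capitals mark CCAAT and, on the reverse strand, the letters of TGACNNNGC.
SIRT6 promoter: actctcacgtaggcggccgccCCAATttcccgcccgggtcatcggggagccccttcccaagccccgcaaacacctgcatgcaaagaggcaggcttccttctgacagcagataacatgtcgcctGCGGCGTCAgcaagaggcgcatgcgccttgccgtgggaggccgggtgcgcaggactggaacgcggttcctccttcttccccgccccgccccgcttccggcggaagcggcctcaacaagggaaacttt
The CCAAT box begins 229 bases and the CNC letters 127 bases before the start. The window before the other SIRT6 start holds none of the letters searched, so the printed windows show no contrast between these genes that holds for all their starts. Such letters are common: of 35116 RefSeq promoter windows of this length, 32.0% held CCAAT and 10.9% held TGACNNNGC on either strand.

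The other 4 sirtuins tested fell, where 44.9% of all genes tested fell. SIRT1, the nuclear deacetylase of p53 and many factors, averaged 6.59 ± 0.628 FPKM with carfilzomib and 8.87 ± 0.251 FPKM with DMSO (SD, n = 3 each), a difference of -0.38. SIRT2, mainly cytosolic, had 12.6, 12.5 and 13.5 FPKM with carfilzomib and 17.9, 18.7 and 18.1 FPKM with DMSO, and its difference was -0.47 (SE 0.0414, limma adjusted p = 2.56e-06). SIRT3, the main mitochondrial deacetylase, had 1.86, 1.53 and 1.84 FPKM with carfilzomib and 2.92, 3.28 and 2.81 FPKM with DMSO. Neither gene's groups overlapped, and SIRT3 differed by -0.54 (SE 0.0741, limma adjusted p = 6.65e-05). SIRT5, a mitochondrial desuccinylase, averaged 0.701 ± 0.115 FPKM with carfilzomib and 1.39 ± 0.121 FPKM with DMSO (SD, n = 3 each), a difference of -0.49. With a mean of 1.04 FPKM over the 6 libraries, SIRT5 passed the filter only through its DMSO libraries. Of the 17 alternatives, 13 could be run for it. It shares 17.8% of its exon bases with a gene on the opposite strand, and the strand setting of the counting is not given, so reads of both may be mixed. SIRT4 was below the filter, with 30 to 73 reads with carfilzomib and 32 to 55 reads with DMSO. Summed over nuclear sirtuins, the level was 32.2 to 33.4 FPKM with carfilzomib and 20.5 to 21.1 FPKM with DMSO. Summed over mitochondrial sirtuins, it was 2.71 to 3.01 FPKM and 4.43 to 5.31 FPKM in the same order.

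Among the acetyltransferases, 1 of 8 rose, 6 fell and 1 did not pass the test, with a median difference of -0.32, beside 36.7% higher and 44.9% lower of all genes tested. With median-of-ratios scaling or quantile normalization 4 fell, without KAT6A and KAT8. Of all 11153 genes tested, 4418 and 4543 fell at these settings. The 3 of the GNAT type all fell. KAT2B (PCAF), the acetyltransferase subunit of the SAGA-like PCAF complex, had 0.956, 0.812 and 0.786 FPKM with carfilzomib, against 4.15, 4.26 and 4.77 FPKM with DMSO. These values rest on 178, 148 and 146 reads with carfilzomib and on 774, 802 and 898 reads with DMSO, and the groups were far apart. The ratio of means was 0.194 and the difference was -1.54 (SE 0.0696, limma adjusted p = 1.75e-08), the largest change of any member. KAT2B was under 1 FPKM in each carfilzomib library and passed the filter through its DMSO libraries. Because KAT2B is low, the size of its difference depends on the method. It was -0.68 with a pseudocount of 5, below 1 in size, and -2.37 by limma-voom on the recovered reads. KAT2B was called lower in both. With the pseudocount of 5 the fall of HDAC6, at -0.70, was the larger. KAT2A (GCN5), which takes the place of KAT2B in the same kind of complex, averaged 6.53 ± 0.281 FPKM with carfilzomib and 9.38 ± 0.379 FPKM with DMSO (SD, n = 3 each), a difference of -0.46. KAT14, a subunit of the ATAC complex, averaged 6.72 ± 0.234 FPKM and 11.4 ± 0.222 FPKM in the same order, a difference of -0.69. In the exon annotation 16% of its bases are shared with PET117 on the same strand, and 13.0% of those of KAT2A with another gene. The summed level of the GNAT type was 13.8 to 14.5 FPKM with carfilzomib and 24.9 to 25.4 FPKM with DMSO.

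The MYST acetyltransferases changed less, and their summed level overlapped between groups at 34.2 to 36.1 FPKM with carfilzomib and 35.0 to 37.6 FPKM with DMSO. KAT5 (TIP60), the catalytic subunit of the NuA4 complex, was the sole acetyltransferase called higher. It had 13.2, 12.2 and 13.0 FPKM with carfilzomib and 10, 12 and 11.2 FPKM with DMSO, groups that barely separated, with a difference of 0.20 (SE 0.0615, limma adjusted p = 0.0135). Without DMSO replicate 1 the difference was 0.13 and still called. KAT5 shares 32.2% of its exon bases with RNASEH2C on the opposite strand. KAT6B, which acetylates H3 in the BRPF complexes, averaged 1.99 ± 0.0417 FPKM with carfilzomib and 3.09 ± 0.190 FPKM with DMSO (SD, n = 3 each), a difference of -0.46. KAT8, the main acetyltransferase of H4 lysine 16, differed by -0.19 (limma adjusted p = 0.0113), a call lost with median-of-ratios scaling (-0.12) and quantile normalization (-0.08). KAT6A differed by -0.13 (limma adjusted p = 0.0421), with overlapping groups and a call lost in 10 alternatives. These included leaving out carfilzomib replicate 2 (-0.11) or 3 (-0.10), or DMSO replicate 2 (-0.14) or 3 (-0.10). KAT7, the partner of ORC in origin licensing, differed by -0.04 (95% interval -0.17 to 0.08).

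The enzymes that write H3K4 methylation are the catalytic subunits of the COMPASS family. Of 6 tested, 4 rose, none (0) fell and 2 did not pass the test, with a median difference of 0.27, beside 36.7% higher and 44.9% lower of all genes tested. SETD1B, which writes trimethyl H3K4 at promoters, averaged 5.49 ± 0.242 FPKM with carfilzomib and 3.55 ± 0.0969 FPKM with DMSO (SD, n = 3 each), a difference of 0.51. KMT2B rose by 0.33 and KMT2D and KMT2C, the enhancer methyltransferases, by 0.33 and 0.21. The interval of SETD1A was -0.11 to 0.17 and that of KMT2A was -0.25 to 0.08, around differences of 0.03 and -0.08. KMT2A shares 22.0% of its exon bases with another gene on the same strand. Summed, the H3K4 writers had 56.6, 51.7 and 55.7 FPKM with carfilzomib and 44.3, 46.3 and 46.8 FPKM with DMSO.

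The demethylases that act on the same lysine divided by type, where 36.7% of all genes tested rose and 44.9% fell. The 3 JmjC enzymes KDM5A, KDM5B and KDM5C, which remove di- and trimethyl H3K4, all rose, with differences of 0.42, 0.23 and 0.26. KDM5C was the most abundant of them, averaging 44.1 ± 0.720 FPKM with carfilzomib and 36.7 ± 0.460 FPKM with DMSO (SD, n = 3 each). Summed, the KDM5 enzymes had 58.8 to 60.1 FPKM with carfilzomib and 48.2 to 49.0 FPKM with DMSO. KDM1A (LSD1), the FAD-dependent eraser of mono- and dimethyl H3K4 in CoREST, fell, to 20.9 ± 0.538 FPKM with carfilzomib against 26.3 ± 1.02 FPKM with DMSO (SD, n = 3 each), a difference of -0.32. KDM1B had an interval of -0.22 to 0.09. The study's files hold transcript levels alone, so histone marks were not analysed here.

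**Figure D4:**
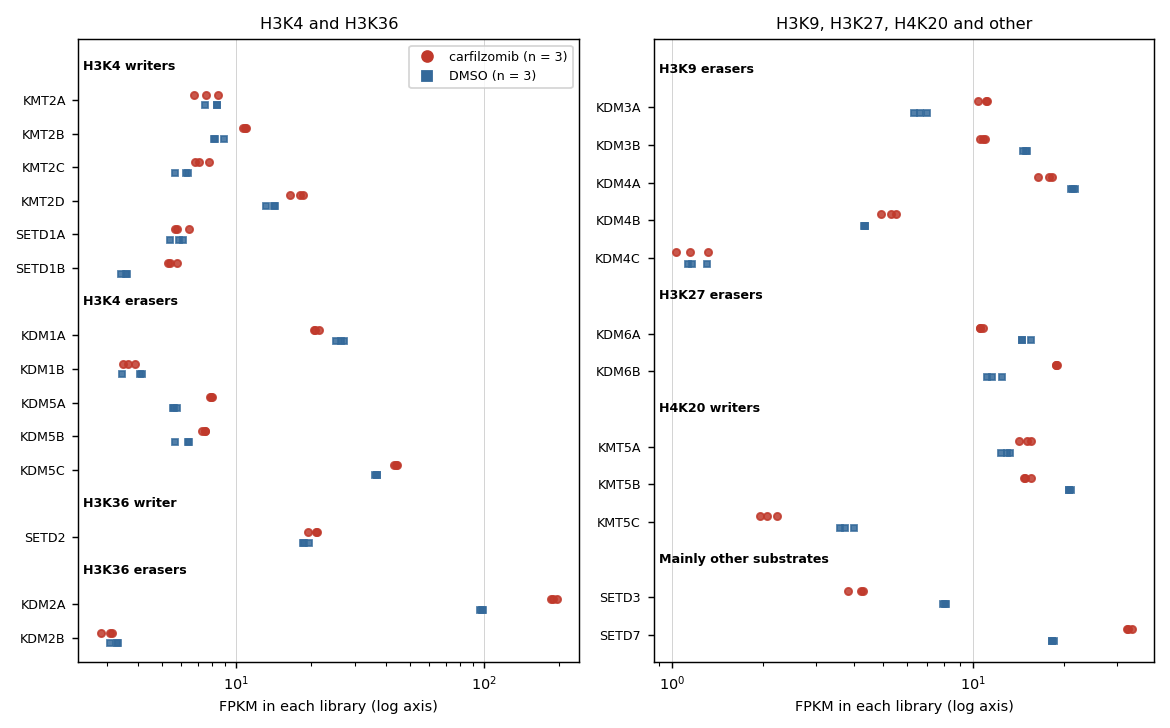
FPKM of lysine methyltransferases and demethylases in each carfilzomib library (circles) and DMSO library (squares), on log axes, grouped by the histone lysine they act on. KDM2A lies at 186 to 196 FPKM with carfilzomib and 95.8 to 99.3 FPKM with DMSO, and KDM6A and KDM6B have the groups in opposite order.

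The members that act on H3K36 included the most abundant demethylase. KDM2A, which binds unmethylated CpG islands and removes mono- and dimethyl H3K36, had 186, 190 and 196 FPKM with carfilzomib, against 98.1, 95.8 and 99.3 FPKM with DMSO. The groups were far apart, the ratio of means was 1.95 and the difference was 0.96 (SE 0.0300, limma adjusted p = 1.57e-09), the largest rise and the highest level among the demethylases. Its relative KDM2B differed by -0.07 (95% interval -0.20 to 0.06). The FPKM ratio of KDM2A to KDM2B was 59.0, 66.7 and 63.1 in the carfilzomib libraries and 29.5, 29 and 32.2 in the DMSO libraries. SETD2, which writes trimethyl H3K36 along transcribed genes, differed by 0.11 (limma adjusted p = 0.0282) with overlapping groups. The SETD2 call was lost on leaving out carfilzomib replicate 1 (0.10) or 3 (0.09), or DMSO replicate 1 (0.10) or 2 (0.11). KDM8, a hydroxylase once assigned to H3K36, differed by -0.18 (limma adjusted p = 0.0553) in groups that did not overlap, and was called lower without carfilzomib replicate 3 (-0.24) and without the mean-variance trend (-0.18). KDM8 averaged 0.908 FPKM with carfilzomib and 1.15 FPKM with DMSO, so it passed the filter through its DMSO libraries. It shares 10.7% of its exon bases with an antisense gene.

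For H3K27, the erasers moved in opposite directions. KDM6A (UTX), an X-linked demethylase that sits in the KMT2C and KMT2D complexes, had 10.5, 10.5 and 10.8 FPKM with carfilzomib and 14.5, 14.5 and 15.5 FPKM with DMSO, a difference of -0.45 (SE 0.0421, limma adjusted p = 3.88e-06). KDM6B (JMJD3), known as an inducible gene, averaged 18.9 ± 0.122 FPKM with carfilzomib and 11.7 ± 0.753 FPKM with DMSO (SD, n = 3 each), a difference of 0.65 (SE 0.0467, limma adjusted p = 5.52e-07). The FPKM ratio of KDM6A to KDM6B was 0.553, 0.550 and 0.573 with carfilzomib and 1.25, 1.31 and 1.24 with DMSO, so the more abundant of the pair was KDM6B in each carfilzomib library and KDM6A in each DMSO library.

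Of the erasers of H3K9, KDM3A and KDM3B also moved in opposite directions. KDM3A, which removes mono- and dimethyl H3K9 and is known as a hypoxia-induced gene, averaged 10.8 ± 0.406 FPKM with carfilzomib and 6.68 ± 0.324 FPKM with DMSO (SD, n = 3 each), a difference of 0.62. KDM3B averaged 10.7 ± 0.179 FPKM with carfilzomib and 14.9 ± 0.273 FPKM with DMSO (SD, n = 3 each), a difference of -0.44. The sum of KDM3A and KDM3B barely differed, at 20.9 to 22.0 FPKM with carfilzomib and 21.3 to 22.1 FPKM with DMSO. JMJD1C, whose symbol lacks the prefix, is not in this sum and rose by 0.80. Of the KDM4 enzymes, which remove trimethyl H3K9 and H3K36, KDM4B rose by 0.23, KDM4A had a difference of -0.28 and was called lower, KDM4C had an interval of -0.19 to 0.14, and KDM4D was below the filter with 22 to 45 reads with carfilzomib and 26 to 32 reads with DMSO. KDM4A shares 46.4% of its exon bases with another annotated protein-coding gene on the same strand. KDM7A, which removes dimethyl H3K9 and H3K27, fell by 0.26.

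The H4 lysine 20 methyltransferases separated by step. KMT5A, which adds the first methyl group and is itself a cell cycle regulated enzyme, rose by 0.20. KMT5B and KMT5C, which add further methyl groups, had differences of -0.46 and -0.64, both called lower, with 15 ± 0.439 FPKM with carfilzomib and 20.9 ± 0.215 FPKM with DMSO for KMT5B, and 2.08 ± 0.134 FPKM and 3.79 ± 0.199 FPKM in the same order for KMT5C (SD, n = 3 each).

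Among the KMT and SETD members alone, the largest changes were in enzymes known mainly for substrates other than histones. SETD7, which methylates p53 and other factors and can monomethylate H3K4, had 33.6, 32.8 and 32.5 FPKM with carfilzomib and 18.6, 18.2 and 18.2 FPKM with DMSO. The libraries of each group were close together and far from the other group, with a ratio of 1.80 and a difference of 0.81 (SE 0.0326, limma adjusted p = 7.89e-09). SETD3, the actin histidine methyltransferase, had 4.23, 3.83 and 4.30 FPKM with carfilzomib and 8.09, 8.06 and 7.93 FPKM with DMSO. Its ratio of 0.513 was close to that of HDAC6, and its difference was -0.82 (SE 0.0517, limma adjusted p = 2.07e-07). SETD4 rose by 0.25, SETD6 and SETD9 did not pass the test, and SETD6 shares 29.9% of its exon bases with CNOT1 on the opposite strand. SETD5 rose by 0.38 and KMT2E had a difference of -0.21. The KMT2E call was lost with quantile normalization (-0.09). SETD5 and KMT2E have a SET domain but no settled methyltransferase activity.

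The arginine methyltransferases were dominated by PRMT1, the main writer of asymmetric dimethylarginine. PRMT1 had 189, 196 and 186 FPKM with carfilzomib and 195, 191 and 183 FPKM with DMSO. The groups overlapped, and the difference was 0.01 (95% interval -0.07 to 0.08, limma adjusted p = 0.868). Its call depends on the scaling, since it was called higher with median-of-ratios scaling (0.10) and lower with quantile normalization (-0.11). PRMT5, the main writer of symmetric dimethylarginine, had 60.3, 59.9 and 57.8 FPKM with carfilzomib and 44.5, 46.2 and 45.4 FPKM with DMSO. Its groups did not overlap, and the difference was 0.38 (SE 0.0311, limma adjusted p = 1.46e-06). PRMT5 shares 34.8% of its exon bases with its antisense gene PRMT5-AS1, and the reads of both may be mixed. WDR77, the obligate partner of PRMT5, differed by 0.11 and did not pass the test; it was picked out after its values were seen.

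Of the other arginine methyltransferases, 3 fell, where 44.9% of all genes tested fell. PRMT9, a symmetric writer known for a splicing factor, had 1.73, 1.58 and 1.58 FPKM with carfilzomib and 2.84, 3.29 and 3.27 FPKM with DMSO. The groups did not overlap, and the difference was -0.65 (SE 0.0671, limma adjusted p = 8.17e-06). PRMT7, the monomethyl writer, averaged 2.12 ± 0.158 FPKM with carfilzomib and 3.89 ± 0.132 FPKM with DMSO (SD, n = 3 each), a difference of -0.65. PRMT3, known for methylating a ribosomal protein, averaged 6.35 ± 0.0891 FPKM and 9.75 ± 0.529 FPKM in the same order, a difference of -0.55. PRMT2 had an interval of -0.04 to 0.18, and was called higher with median-of-ratios scaling (0.15) and quantile normalization (0.19).

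The balance of related enzymes was compared within libraries, and no pair could pass the test at this number of libraries. Of 17 pairs listed, 16 had both genes tested, and in 15 the log2 ratio did not overlap between carfilzomib and DMSO libraries, where 82.8% of all single genes tested did not overlap. The exact two-sided permutation test gave p = 0.1 for each of these 15, the smallest that 3 libraries against 3 can give, and 0.107 after Benjamini-Hochberg adjustment over the 16 pairs. The change in the log2 ratio of FPKM + 1, carfilzomib minus DMSO, was 1.08 for KAT2A over KAT2B, 1.06 for KDM3A over KDM3B, 1.03 for KDM2A over KDM2B and -1.10 for KDM6A over KDM6B. It was between -0.50 and 0.32 for the other 12 pairs. These sizes depend on the pseudocount where a member is low: with 0.1 and with 5 in place of 1, KAT2A over KAT2B changed by 1.73 and 0.36, and with 5, KAT6A over KAT6B changed by 0.11, SETD1A over SETD1B by -0.28 and KMT5B over KMT5C by -0.06, against 0.32, -0.48 and 0.18. With quantile normalization KMT2C over KMT2D changed by -0.03, against -0.11. The pair that overlapped was SIRT1 over SIRT2, at 0.09 with an exact p of 0.4.

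**Figure D5:**
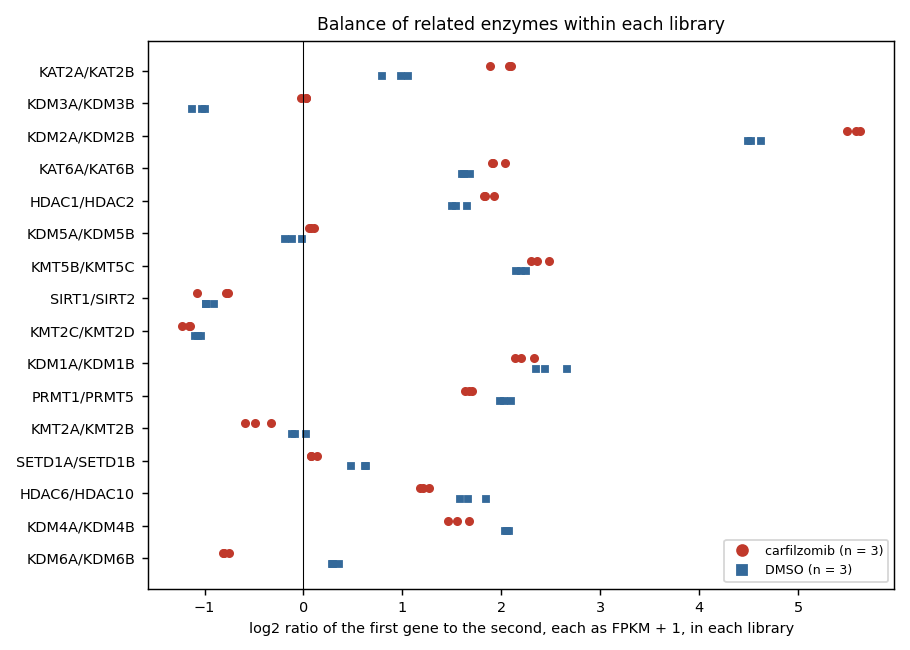
Log2 ratio of the first to the second gene of 16 related pairs, each as FPKM + 1, in each carfilzomib library (circles) and DMSO library (squares), ordered by the change. With this pseudocount KAT2A/KAT2B is at the top (1.08) and KDM6A/KDM6B at the bottom (-1.10), an order that changes with the pseudocount, and KDM3A/KDM3B lies near 0 with carfilzomib and near -1.05 with DMSO.

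The families were also set side by side, against 36.7% higher and 44.9% lower of all genes tested. Of those tested, 2 HDAC rose and 6 fell of 10, 2 sirtuins rose and 4 fell of 6, 1 KAT rose and 6 fell of 8, 9 KMT and SETD rose and 4 fell of 17, 7 KDM rose and 5 fell of 16, and 1 PRMT rose and 3 fell of 6. With median-of-ratios scaling 3 HDAC rose and 4 fell and 3 PRMT rose and 3 fell, and with quantile normalization 3 HDAC rose and 5 fell. Of all 11153 genes tested, 4652 rose and 4418 fell with the first scaling, and 4546 and 4543 with the second. In the main test the median differences of the HDAC, SIRT, KAT, KMT with SETD, KDM and PRMT families were -0.19, -0.43, -0.32, 0.11, -0.04 and -0.27, beside -0.07 for all genes tested. In summed level the demethylases were higher, at 352 to 365 FPKM with carfilzomib and 258 to 266 FPKM with DMSO, where KDM2A alone averaged 191 and 97.7 FPKM in the same order, and the acetyltransferases were lower, at 48.8 to 50.1 FPKM with carfilzomib and 60.4 to 62.6 FPKM with DMSO. The families were described by these counts and medians and no difference between them was tested.

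Most tested genes fell in a list of other histone-modifying enzymes, whose symbols do not carry these prefixes. The list was chosen with earlier results of these data known, so its shares are a description and not a test. Of 37 listed, 34 were tested, 7 rose and 24 fell, or 20.6% and 70.6%, with a median difference of -0.40. All genes tested had 36.7% higher and 44.9% lower. The largest falls were in EZH2, the H3K27 methyltransferase of PRC2, at 3.57 FPKM with carfilzomib and 10.4 FPKM with DMSO, EHMT2 (G9a), which writes dimethyl H3K9, at 6.64 FPKM with carfilzomib and 18.0 FPKM with DMSO, and NSD2, which writes dimethyl H3K36, at 5.73 FPKM with carfilzomib and 14.4 FPKM with DMSO. The largest rise was in JMJD6, a lysine hydroxylase, at 20.6 FPKM with carfilzomib and 4.12 FPKM with DMSO, followed by the coactivator NCOA3 (0.83) and JMJD1C (0.80).

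Partners of the enzymes in their complexes were counted too. Of 58 listed, 57 were tested, 12 rose and 31 fell, or 21.1% and 54.4% beside 36.7% and 44.9% of all genes tested, with a median difference of -0.15. With median-of-ratios scaling 16 rose and 24 fell, where 4652 of all 11153 genes tested rose and 4418 fell. PHF1, a PRC2 accessory protein, rose most, at 29.7 FPKM with carfilzomib and 10.7 FPKM with DMSO, followed by ING4 (0.72) and BRPF1 (0.48), subunits of MYST complexes. PSIP1, which tethers KMT2A complexes to chromatin, fell most, at 5.16 FPKM with carfilzomib and 14.7 FPKM with DMSO, followed by PAXIP1 (-0.92) and the Sin3 subunit SAP30 (-0.85). Proliferation markers moved with the groups too: 13 of 13 fell, with a median difference of -1.43 and a summed level of 248 to 263 FPKM with carfilzomib and 707 to 723 FPKM with DMSO, and none was at 0. Their part in the changes of the enzymes was not tested.

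The letters searched in the HDAC6 and SIRT6 promoters were also counted over the whole set. RefSeq promoter windows were found for 61 of the 66 members, 92 windows in all. CCAAT was present in 37.9% of the 29 windows of members called higher and in 35.1% of the 37 windows of members called lower, beside 32.0% of all windows. GAANNTTC was present in 3.4% and 5.4% of these windows in the same order, beside 5.8% of all. TGACNNNGC was present in 6.9% and 2.7%, beside 10.9% of all, and TTTGAA in 0.0% and 5.4%, beside 13.3% of all. TGANTCA was present in 10.3% and 2.7%, beside 6.6% of all, and an E2F core in 3.4% and 2.7%, beside 4.2% of all. These are matches of letters on either strand, counted without a test, and with few windows in each group. A gene with several starts gives several windows: the 29 windows come from 20 genes and the 37 from 26 genes.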

How the data were processed

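The authors deposited 1 table of FPKM values with a column per library and gene symbols as row names. Per the submitters' processing notes, the tools were HISAT2, HTSeq, fastp, DESeq2 and R 3.2.0, with no role given, and the build was GRCm39, a mouse build. Rows carry human symbols, so coordinates are given for RefSeq promoters alone (GRCh38.p14). The strand setting of the counting was not given in the sources used here. Exons shared with other genes were found in GENCODE annotation of human genes.

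Values were tested with limma 3.58.1 in R 4.3.3 (lmFit, eBayes with trend) on log2(FPKM + 1), two-sided, over 11153 genes with a mean of at least 1 FPKM, with Benjamini-Hochberg adjustment over all of them. The pseudocount understates changes of low genes. The fit was tested on simulated data. Whole reads were recovered from ratios between libraries in 19018 of 19021 rows (99.98%, relative tolerance 1e-12) and used for depth and for a limma-voom alternative, which called 22 members higher and 28 lower. Of all 11150 genes tested, limma-voom called 4137 higher and 5048 lower. Groups and replicate numbers came from sample titles. Members and gene lists were chosen with earlier results of these data known.

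Library values are given for HDAC6, for members past a difference of 1, and for the largest rise, largest fall and highest level in each family; of the other lists, for up to 3 of the largest called differences in each direction. A gene of the aggresome list counts in its totals and is not reported here.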

Additional observations from a re-analysis of the deposited data

How the results depend on the processing

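Of the 63 tested members, 44 kept their direction and their call in every alternative that could be run for them (17 at most), and HDAC6 lay between -0.96 and -0.70 and was called lower in all 17. Members called higher and lower numbered 21 to 22 and 26 to 28 when 1 library was left out, 25 and 24 with median-of-ratios scaling, 24 and 25 with quantile normalization, and 18 and 18 with a mean of at least 5 FPKM, a filter that removes the low genes. All genes called higher and lower numbered 4652 and 4418 of 11153 with median-of-ratios scaling and 4546 and 4543 with quantile normalization. When 1 library was left out they numbered 3916 to 4032 and 4791 to 4960, of 11119 to 11183 genes tested. With a mean of at least 5 FPKM they numbered 3052 and 3246 of 7375, against 4089 and 5007 of 11153 in the main test. The median difference of the members was -0.04 with a pseudocount of 5, 0.02 with a mean of at least 5 FPKM, 0.00 with median-of-ratios scaling, 0.03 with quantile normalization, and -0.09 to -0.03 without 1 library. The median of all genes tested was 0.01 and 0.00 under the 2 scalings, against -0.07. With a mean of at least 5 FPKM, 1 HDAC was called higher, 2 sirtuins lower and 1 PRMT lower. PRMT genes called higher numbered 3 with median-of-ratios scaling and 2 with quantile normalization.

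Signs changed in 10 members, none of them called in the main test. With median-of-ratios scaling HDAC8 was 0.03, KAT7 0.03, KDM1B 0.01 and KDM4C 0.03. With quantile normalization HDAC8 was 0.08, KAT7 0.08, KDM1B 0.06, KDM2B 0.07, KDM4C 0.12, KMT2A 0.03, SETD6 0.03 and PRMT1 -0.11. Without 1 library KDM4C was 0.01 to 0.02, PRMT1 -0.02, SETD1A -0.02 to -0.01 and SETD9 -0.07 to -0.02. The KMT5B over KMT5C ratio was -0.06 with a pseudocount of 5. The cause was not tested.

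The replicate numbers did not pair the libraries: deviations of same-numbered libraries from their group means correlated at -0.0121, -0.0034 and 0.0126. With a replicate block 22 members were called higher and 27 lower, the call of KAT6A being the one lost. Of all 11153 genes tested, 4059 were called higher and 4995 lower with the block.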
